A study of Mus musculus with 11 samples.

Results

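The prostaglandin and leukotriene pathway was followed through 10 genes chosen by name: Ptgs1, Ptgs2, Ptges, Hpgds and Tbxas1 of prostanoid synthesis, Hpgd of prostaglandin breakdown, the receptor gene Ptger4, and Alox5, Alox5ap and Ltc4s of leukotriene synthesis. Every probe named for these genes on the array was read, 19 probes of 9 genes among 45281 probes. The annotation used here names no probe for Ptgs1. Of the 10 genes, 8 passed the detection filter and were tested among 8952 genes. Both probes of Ptger4, the prostaglandin E2 receptor EP4, were detected on 0 of 11 arrays, with log2 signals of 4.27 to 4.67, and the gene was not tested.

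The series measured total RNA of cultured primary microglia from the brains of newborn C57BL/6J mice on 11 Illumina mouse BeadChip arrays. Microglia are the resident macrophages of the brain, and the study set pro-inflammatory beside anti-inflammatory stimulation. The IL-4 arrays (3) are of cells given 100 U/ml, and the TGFb arrays (3) of cells given 20 ng/ml, each over 48 h. The combination of LPS (100 ng/ml) and IFNg (20 ng/ml), here LPS/IFNg, was given over 16 h and has arrays of replicates 1 and 3. Untreated cells have 3 arrays and no stated time. All groups grew in the same serum-containing medium. The LPS/IFNg arrays differ from the IL-4 and TGFb arrays in both stimulus and time, which cannot be told apart. All untreated arrays lay on slide 2, while each stimulus was spread over both slides.

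The median raw intensity per array was 120.1 to 127.3, and 12427 to 14200 probes were detected per array, fewest with LPS/IFNg. Of 9 microglia and macrophage markers with a probe, all 9 were detected on the IL-4, TGFb and untreated arrays and 7 on the LPS/IFNg arrays, where P2ry12 and Tmem119 were not detected. IL-4 replicate 1 stood apart, with correlations across genes of 0.945 and 0.954 to replicates 2 and 3, against 0.987 between those replicates. On it 5 of 8 fibroblast and mural cell markers were detected, against 1 to 3 on the other arrays, and 5 of 6 astrocyte markers, against 0 to 3 elsewhere. Untreated replicate 2 had the lowest Tmem119 signal of the untreated arrays, at 6.75 log2 units, against 8.87 and 9.34 in replicates 1 and 3. All 9 microglia and macrophage markers were detected on it. Their summed signal was 15.30 log2 units, against 15.54 and 15.61 in replicates 1 and 3. Signals were summed on the linear scale, so the brightest markers weigh most and the sum does not show how dimmer ones differed.

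Prostaglandins and thromboxane are made from arachidonic acid, which phospholipases free from membranes. The cyclooxygenases Ptgs1 and Ptgs2 turn it into prostaglandin H2, and terminal synthases turn that into prostaglandin E2 (Ptges), prostaglandin D2 (Hpgds) or thromboxane (Tbxas1), while 15-hydroxyprostaglandin dehydrogenase (Hpgd) oxidises prostaglandins to inactive products. Leukotrienes come from the same acid through 5-lipoxygenase (Alox5) with its activating protein (Alox5ap), and leukotriene C4 synthase (Ltc4s) attaches glutathione. Macrophages, microglia among them, are known to make both kinds of lipid.

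For Ptgs2, Ptges and Hpgd, on which the results for prostaglandin synthesis and breakdown turn, the 250 bases before the annotated gene start are shown 5′ to 3′ on the gene's strand, from RefSeq on GRCm38.p6. Ptgs2 lies at chr1:150099781-150100030 on the plus strand, Ptges at chr2:30903298-30903547 on the minus strand and Hpgd at chr8:56294302-56294551 on the plus strand. Capitals mark a match to a searched motif.
Ptgs2: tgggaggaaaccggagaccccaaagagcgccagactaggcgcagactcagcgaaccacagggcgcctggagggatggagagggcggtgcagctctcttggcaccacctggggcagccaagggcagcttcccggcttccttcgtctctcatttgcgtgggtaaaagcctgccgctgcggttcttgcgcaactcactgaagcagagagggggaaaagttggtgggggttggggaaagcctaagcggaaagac
Ptges: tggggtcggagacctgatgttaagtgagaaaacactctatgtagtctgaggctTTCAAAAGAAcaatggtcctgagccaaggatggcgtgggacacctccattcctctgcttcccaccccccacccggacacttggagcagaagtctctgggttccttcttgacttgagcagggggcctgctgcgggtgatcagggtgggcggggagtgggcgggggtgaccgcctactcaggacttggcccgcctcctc
Hpgd: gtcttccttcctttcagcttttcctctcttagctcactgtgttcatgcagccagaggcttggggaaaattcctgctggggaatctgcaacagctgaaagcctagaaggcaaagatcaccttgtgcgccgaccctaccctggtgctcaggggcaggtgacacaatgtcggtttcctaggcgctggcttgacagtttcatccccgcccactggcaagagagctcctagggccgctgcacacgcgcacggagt
The motifs, read on both strands, were the NF-kB consensus, the STAT6-type element (TTC and GAA with any 4 bases between), the interferon element (GAAA and GAAA with any 2 bases between), the cAMP element (TGACGTCA) and the TATA element (TATAAA). They occurred in 3.9%, 5.85%, 2.98%, 1.55% and 12.4% of 32851 promoters of the same length, in that order. Ptges held 1 match, to the STAT6-type element, and Ptgs2 and Hpgd held 0. Among the 9 members with a promoter in the table (all but Alox5ap), only Tbxas1 held others, 1 match to the STAT6-type element and, on opposite strands and overlapping, 2 to the TATA element. These are matches of letters in this window and say nothing on which factors bind.

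LPS with IFNg against untreated cells is the pro-inflammatory comparison, in which 7 of the 8 tested members were called. The genes for inducible cyclooxygenase and prostaglandin E synthase were higher, the gene for the prostaglandin-degrading enzyme was below detection, and Alox5ap and Ltc4s of the leukotriene branch were lower. Of the 8 tested members, limma called 2 higher and 5 lower at an adjusted p below 0.05, and Alox5 was not called. The 2 include Ptgs2, which passed the detection filter only through LPS/IFNg. It could therefore enter the counts of this comparison only as a probe that differs. In this comparison 41.0% of all tested genes were called, 17.5% higher and 23.5% lower. The arrays of both groups did not overlap in any of the 8 members, as in 63.1% of all genes. The median log2 fold change was -1.65 over the 8 members and -0.07 over all genes. In bulk RNA, fewer cells that express a gene and less RNA per cell cannot be told apart.

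**Figure D1:**
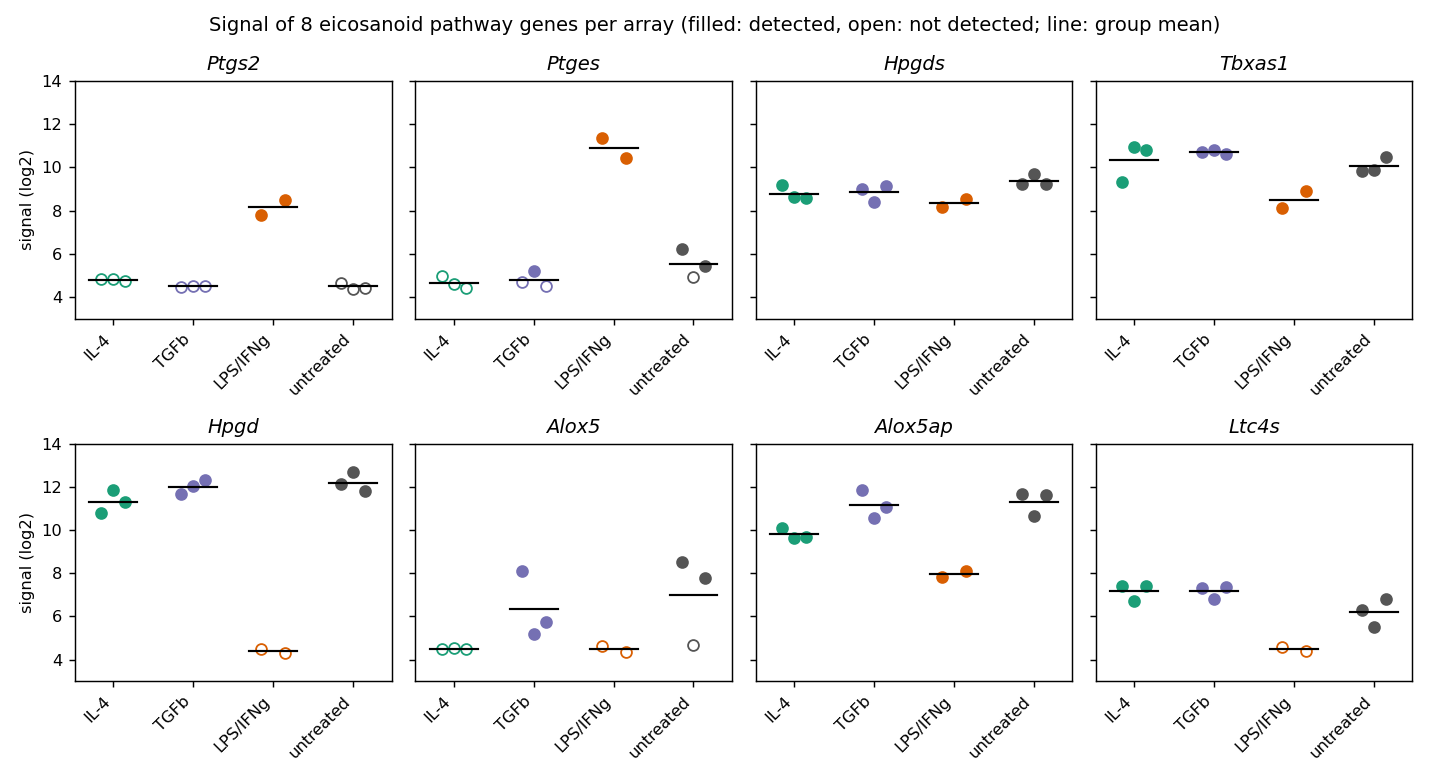
Background-corrected, quantile-normalized log2 signal of the tested probe of each of 8 members, 1 point per array, with groups along the horizontal axis and a line at each group mean. Filled points were detected at a detection p below 0.01 and open points were not: Ptgs2 is filled only with LPS/IFNg, and Hpgd and Ltc4s are open only with LPS/IFNg.

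Ptgs2, the inducible cyclooxygenase, had log2 signals of 7.78 and 8.51 with LPS/IFNg, against 4.65, 4.39 and 4.43 in untreated cells. It was detected on both LPS/IFNg arrays and on none of the other 9, so the groups did not overlap. The probe passed the detection filter of 2 arrays only through LPS/IFNg, where it is high, so it could enter the test only as a probe that differs. The difference was 3.65 ± 0.20 log2 units (SE), with a limma adjusted p of 1.21e-06 when no filter was set, and because no untreated array detected the probe it is given as at least 8.42-fold higher. Such a bound sets the signal in the lower group at no less than the dimmest detected probe of each array. It applies to the difference of the group means and takes no account of the spread between arrays. Without background correction the difference was 1.68, and with the authors' values it was 1.74. A second Ptgs2 probe was detected on 0 of 11 arrays.

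Ptges, the microsomal synthase that forms prostaglandin E2, had log2 signals of 11.38 and 10.43 with LPS/IFNg, against 6.24, 4.91 and 5.42 in untreated cells. Raw intensities were 2915 and 1464 with LPS/IFNg, against 172, 135 and 152 in untreated cells. Both LPS/IFNg arrays lay far above every other array. The difference was 5.38 ± 0.39 log2 units, or 41.7-fold (SE, limma adjusted p = 3.22e-06), and 3.56 in the authors' value table. The other Ptges probe was detected with LPS/IFNg alone, at 9.81 and 8.69, and was at least 18.1-fold higher than in untreated cells. It too passed the filter only through LPS/IFNg, so no p-value is given for it.

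Hpgds, the hematopoietic synthase of prostaglandin D2, was at 8.16 and 8.52 with LPS/IFNg, against 9.21, 9.70 and 9.21 in untreated cells. All arrays detected it, and both LPS/IFNg arrays lay below all untreated arrays. It fell by 1.03 log2 units (SE 0.28, limma adjusted p = 0.0132). The call was lost on slide 2 alone (-0.86, adjusted p = 0.0903) and without LPS/IFNg replicate 1 (-0.86, adjusted p = 0.105).

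Tbxas1, thromboxane A synthase, was at 8.12 and 8.90 with LPS/IFNg, against 9.85, 9.89 and 10.46 in untreated cells. The groups did not overlap, and the gene fell by 1.55 log2 units (SE 0.43, limma adjusted p = 0.0139). Without LPS/IFNg replicate 1 the difference was -1.16 (adjusted p = 0.131). Its probes disagreed: another probe was at -1.59 (adjusted p = 0.0155 in the limma fit of all passing probes), a different one at 0.08 (adjusted p = 0.915), and the last of the 4 was detected on 0 of 11 arrays.

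Hpgd, which inactivates prostaglandins, had log2 signals of 4.48 and 4.29 with LPS/IFNg, against 12.12, 12.68 and 11.81 in untreated cells. Raw intensities were 123 and 111 with LPS/IFNg, against 3828, 6454 and 4287 in untreated cells. It was detected on 0 of 2 LPS/IFNg arrays and on all other 9. The difference was -7.82 ± 0.33 log2 units (SE, limma adjusted p = 1.02e-07), which is at least 114-fold lower. Over 23 alternative settings it ran between -8.01 and -5.30 and was called in each.

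**Figure D2:**
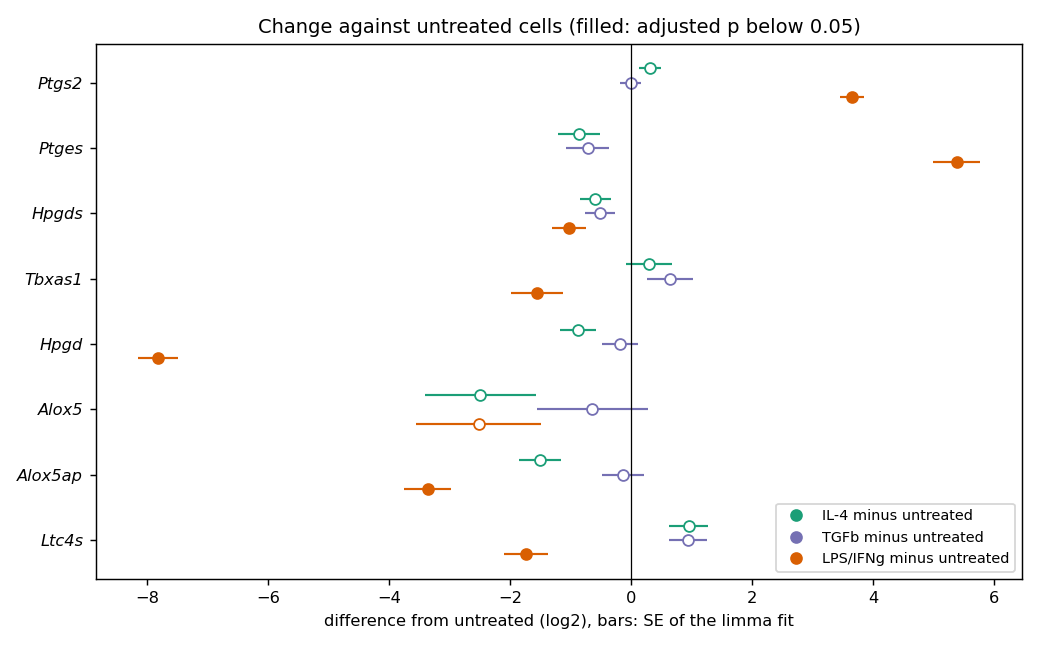
Difference from untreated cells in log2 units for the 8 tested members (rows) with IL-4, TGFb and LPS/IFNg, with bars for the SE of the limma fit and filled points at an adjusted p below 0.05. LPS/IFNg has 7 filled points, from -7.82 for Hpgd to 5.38 for Ptges, and IL-4 and TGFb have none. The filled points include Ptgs2, which passed the detection filter only through LPS/IFNg.

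Alox5ap, the membrane protein that presents arachidonic acid to 5-lipoxygenase, was at 7.81 and 8.09 with LPS/IFNg, against 11.65, 10.64 and 11.64 in untreated cells. Both LPS/IFNg arrays were below all other arrays of the series. The gene fell by 3.36 log2 units (SE 0.39, limma adjusted p = 7.59e-05), a 10.3-fold difference, and its other probe fell by 3.47. Ltc4s, which makes leukotriene C4, was at 4.57 and 4.39 with LPS/IFNg, detected on neither array, against 6.32, 5.53 and 6.83 in untreated cells. Its difference was -1.74 ± 0.36 (SE, limma adjusted p = 0.00271), or at least 1.81-fold lower, and shrank to -0.58 without background correction and -0.53 in the authors' value table.

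Alox5, the 5-lipoxygenase, was at 4.64 and 4.33 with LPS/IFNg, detected on neither array, against 8.54, 4.67 and 7.78 in untreated cells, detected in replicates 1 and 3. Untreated replicate 2 sat at the level of the LPS/IFNg arrays although the ranges did not touch. The difference of the means, -2.52 ± 1.03 log2 units or at least 3.09-fold before any account of the spread, was not called by limma (SE, adjusted p = 0.0738). Without background correction it was -1.17. Without untreated replicate 2 it was -3.68 (adjusted p = 0.00363), and without TGFb replicate 1, which shares the estimate of spread, it was -2.52 with an adjusted p of 0.0453. The other Alox5 probes had the same order of untreated arrays and were not called either.

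**Figure D3:**
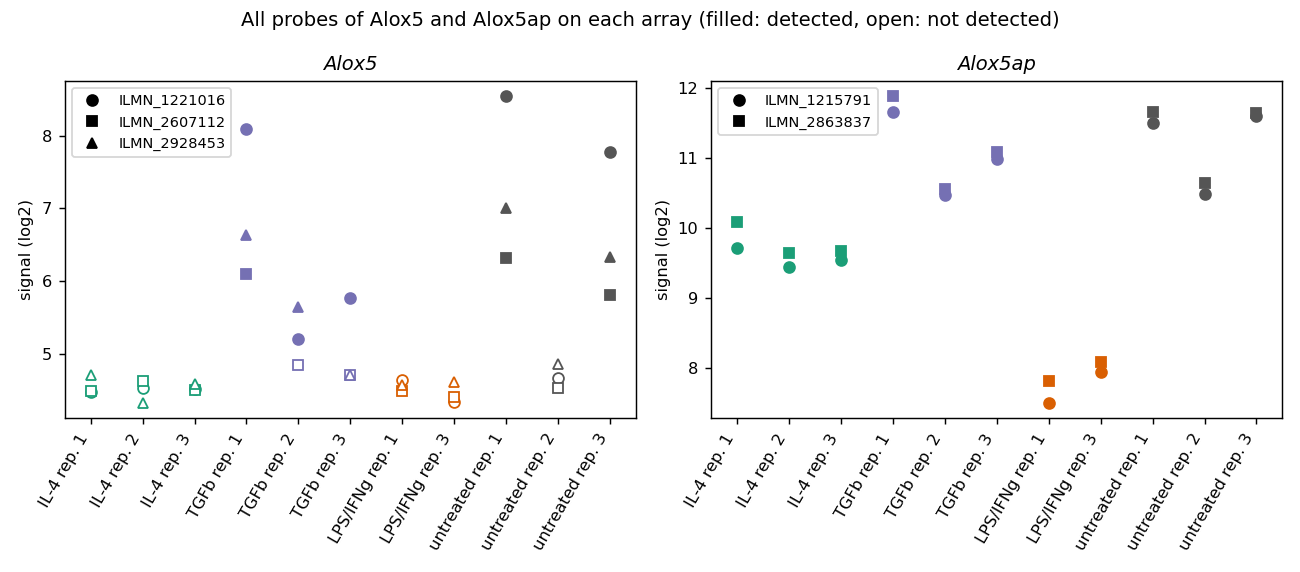
Log2 signal of all 3 Alox5 probes (left) and both Alox5ap probes (right) on each of the 11 arrays, with filled points detected and open points not. All Alox5 probes are low in untreated replicate 2 and open in every IL-4 and LPS/IFNg array, while Alox5ap is filled throughout.

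Cells other than microglia are known to make these lipids, so their markers were read on the same arrays. Of 6 mast cell markers, Hdc, histidine decarboxylase, was detected with LPS/IFNg at 10.07 and 9.04, against 4.56 to 4.70 in untreated cells, while Cpa3, Kit, Tpsb2, Mcpt4 and Fcer1a were detected on 0 LPS/IFNg and 0 untreated arrays. The mast cell list summed to between 9.33 and 10.22 log2 units with LPS/IFNg, against 7.01 to 7.09 in untreated cells. For neutrophils the sum was 7.62 to 8.18 with LPS/IFNg, against 6.60 to 7.37 in untreated cells, with S100a8 as the marker detected. For the fibroblast and mural cell list the sums were 7.92 to 8.45 with LPS/IFNg, against 7.73 to 9.64 in untreated cells. The microglia and macrophage list reached 13.85 to 13.94 with LPS/IFNg, against 15.30 to 15.61 in untreated cells. The endothelial list summed to 7.78 to 8.23 with LPS/IFNg, against 6.71 to 7.33 in untreated cells, with Pecam1 as the only one of 4 markers detected in either group. The oligodendrocyte list summed to 8.83 to 9.19 with LPS/IFNg, against 10.23 to 10.38 in untreated cells, and in it Mbp was lower with LPS/IFNg, Mag was higher and Mog was undetected. Astrocyte sums were 7.80 to 7.95 with LPS/IFNg, against 7.16 to 7.79 in untreated cells, and neuron sums were 6.44 to 6.50 with LPS/IFNg, against 6.51 to 6.74 in untreated cells. The platelet and megakaryocyte list summed to 8.66, 6.05 and 8.11 in untreated replicates 1, 2 and 3, against 6.12 and 6.26 with LPS/IFNg. Ppbp was its only marker detected in these groups, in untreated replicates 1 and 3. The part of these differences in the results was not tested.

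Synthesis was set beside breakdown by taking, on each array, the change of a synthesis gene from the untreated mean and subtracting the change of Hpgd on the same array. With LPS/IFNg the change of Ptgs2 exceeded that of Hpgd by 11.47 ± 0.65 log2 units (SD, n = 2), and in untreated cells the spread around 0 was 0.50 (SD, n = 3). For Ptges the excess was 13.20 ± 0.53 with LPS/IFNg, with a spread of 0.98 in untreated cells. Hpgds and Tbxas1, although lower than in untreated cells, had changes that exceeded that of Hpgd by 6.79 ± 0.38 and 6.26 ± 0.68, with untreated spreads of 0.20 and 0.73. These are differences of changes and not of levels, and no test was made on them. With undetected probes set at the dimmest detected probe of each array the excesses were 9.91 for Ptgs2, 12.16 for Ptges, 5.80 for Hpgds and 5.28 for Tbxas1.

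**Figure D4:**
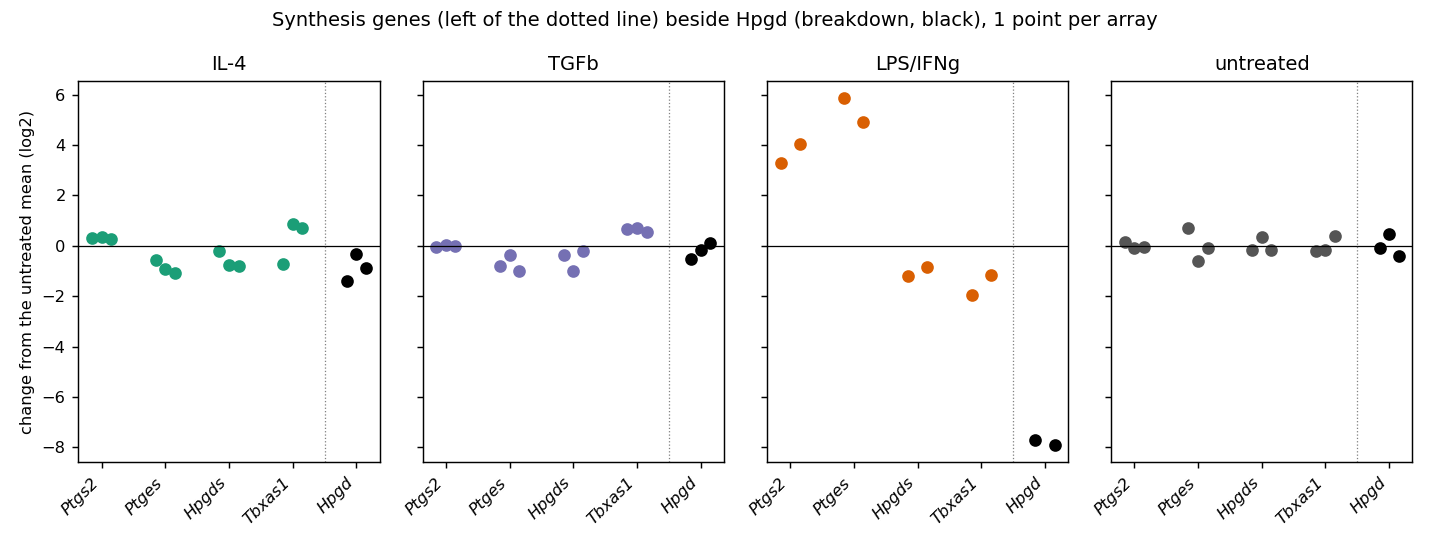
Change from the untreated mean in log2 units for the synthesis genes Ptgs2, Ptges, Hpgds and Tbxas1 (coloured) and for Hpgd (black), 1 point per array, with a panel per group. With LPS/IFNg, Ptgs2 and Ptges lie above 0 and Hpgd near -7.82, while with IL-4 and TGFb the points stay much closer to 0.

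IL-4 against untreated cells is the comparison with an alternative activation stimulus. No member passed the test in the fit without pairing, where limma called 0 of 8, against 1.28% of all genes (0.860% higher, 0.424% lower). Of the 8, 6 had an unadjusted limma p under 0.05, 1 of them higher and 5 lower. The share of all genes was 14.1% (7.17% higher, 6.95% lower). With replicate number as a block on all arrays, limma called 2 members, Alox5ap and Ltc4s, and 184 of all 8952 genes. The groups of arrays did not overlap for 4 members, Ptgs2, Hpgds, Alox5 and Alox5ap, as for 18.5% of all genes. Ptgs2 was undetected on every array of both groups, so its lack of overlap lies at background. The median log2 fold change was -0.72 over the members and 0.01 over all genes.

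Alox5ap came nearest to the threshold, at 10.08, 9.64 and 9.67 with IL-4, against 11.65, 10.64 and 11.64 in untreated cells. All IL-4 arrays lay below all untreated arrays, and the difference was -1.51 ± 0.35 log2 units (SE, limma adjusted p = 0.0678). With replicate number as a block, Alox5ap had an adjusted p of 0.0235 in a limma fit of all arrays and of 0.0499 on these 2 groups alone. The correlations of same-numbered arrays do not settle this pairing. Without untreated replicate 2 the difference was -1.85 (adjusted p = 0.0304), and the authors' value table gave an adjusted p of 0.0422. In 20 of 24 alternatives Alox5ap was not called, and the difference ran from -1.85 to -1.34 over all of them. Of all genes, the authors' table called 405, the replicate block 184 and the fit without untreated replicate 2 129, against 115 in the main fit.

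Alox5 was detected on 0 of 3 IL-4 arrays, at 4.47, 4.53 and 4.51, against 8.54, 4.67 and 7.78 in untreated cells. As with LPS/IFNg, untreated replicate 2 was the array close to the stimulated ones. The difference of the means, -2.49 ± 0.92 log2 units or at least 3.82-fold before any account of the spread, was not called (SE, limma adjusted p = 0.244). It was -1.14 without background correction and -3.66 without untreated replicate 2 (adjusted p = 0.0327).

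Ltc4s was at 7.40, 6.71 and 7.42 with IL-4, against 6.32, 5.53 and 6.83 in untreated cells, so the ranges touched only between IL-4 replicate 2 and untreated replicate 3. Its difference of 0.95 ± 0.32 log2 units was not called (SE, limma adjusted p = 0.199), and with the replicate block the adjusted p was 0.0408 on all arrays and 0.091 on the 2 groups alone. Without untreated replicate 2 it was 0.60 (adjusted p = 0.371), and without background correction 0.46. The leukotriene genes thus did not share a direction with IL-4: the log2 fold change was above 0 for Ltc4s and below 0 for Alox5 and Alox5ap.

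Among prostaglandin genes, Hpgd was at 10.79, 11.86 and 11.31 with IL-4, against 12.12, 12.68 and 11.81 in untreated cells, with overlapping ranges and a difference of -0.88 (limma adjusted p = 0.202). Ptgs2 stayed undetected at 4.81, 4.84 and 4.76, and Ptges was detected on 0 of 3 IL-4 arrays, against 2 of 3 untreated arrays. Hpgds was at 9.17, 8.62 and 8.56, with a difference of -0.59 (adjusted p = 0.315). Tbxas1 was at 9.34, 10.93 and 10.79, with a difference of 0.29 (adjusted p = 0.801). IL-4 replicate 1 had the lowest Hpgd and Tbxas1 signals of its group. On that array the fibroblast and mural cell markers summed to 11.81 log2 units, against 7.66 and 8.06 on the other IL-4 arrays, and the astrocyte markers summed to 11.26, against 7.13 and 7.23. Without it the differences were -0.61 for Hpgd (adjusted p = 0.349) and 0.79 for Tbxas1 (adjusted p = 0.168), and the part of these cells in the values was not tested.

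TGFb against untreated cells is the comparison with the other 48 h stimulus. In the fit without pairing no member passed the test: limma called 0 of 8, against 0.983% of all genes (0.614% higher, 0.369% lower). Of the 8, 1, Ltc4s, had an unadjusted limma p under 0.05, as did 987 of all 8952 genes. The median log2 fold change was -0.16 over the members and 0.01 over all genes. Ltc4s was at 7.33, 6.81 and 7.35 with TGFb, against 6.32, 5.53 and 6.83 in untreated cells, a difference of 0.94 ± 0.32 log2 units (SE, limma adjusted p = 0.251). Without untreated replicate 2 it was 0.59 (adjusted p = 0.442), and without background correction 0.45. With the replicate block the difference was 0.94 and was called (limma adjusted p = 0.042), as were 148 of all 8952 genes.

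Hpgd was at 11.68, 12.03 and 12.32 with TGFb, against 12.12, 12.68 and 11.81 in untreated cells, and the arrays of the groups overlapped (difference -0.19 ± 0.30 log2 units, limma adjusted p = 0.911). Alox5ap was at 11.88, 10.55 and 11.08 with TGFb, against 11.65, 10.64 and 11.64 in untreated cells (difference -0.14, adjusted p = 0.951). Alox5 was detected on all 3 TGFb arrays, at 8.09, 5.20 and 5.76, against 2 of 3 untreated arrays. Its spread was wide in both groups, with SDs of 1.53 with TGFb and 2.05 in untreated cells (difference -0.64, adjusted p = 0.894, and -1.81 with an adjusted p of 0.32 without untreated replicate 2).

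Ptgs2 was undetected on all TGFb arrays, with a difference of -0.01 (limma adjusted p = 0.995), and Ptges was detected on 1 of 3, with a difference of -0.72 (adjusted p = 0.498). Tbxas1 lay at 10.72, 10.79 and 10.60, above all untreated arrays but not called (0.64, adjusted p = 0.611). Hpgds lay below all untreated arrays, at 9.02, 8.39 and 9.16, and was not called either (-0.52, adjusted p = 0.503). Tbxas1 and Hpgds were the 2 members without overlap between the groups, as in 17.7% of all genes.

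Synthesis and breakdown genes were also set side by side with these stimuli. Ptgs2 was undetected in all these groups and Ptges on most of their arrays, so their own changes lie at or near background. With undetected probes set at the dimmest detected probe of each array, the excess was 0.87 ± 0.49 log2 units with IL-4 and 0.27 ± 0.22 with TGFb for Ptgs2 (SD, n = 3 each), and 0.37 ± 0.49 with IL-4 and -0.22 ± 0.22 with TGFb for Ptges. Both other genes were detected on every array. The excess for Hpgds was 0.29 ± 0.83 with IL-4 and -0.33 ± 0.49 with TGFb, and for Tbxas1 it was 1.16 ± 0.46 with IL-4 and 0.83 ± 0.39 with TGFb. The comparisons share their untreated arrays.

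Set directly against IL-4, LPS/IFNg gave 2 members higher and 4 lower of 8 by limma, where 40.0% of all genes were called, 16.4% higher and 23.5% lower. The 2 include Ptgs2, which passed the detection filter only through LPS/IFNg. The arrays did not overlap in 7 of 8 members, as in 61.0% of all genes. Ptgs2 was at least 8.48-fold higher (adjusted p = 2.36e-06 with no detection filter) and Ptges at least 57.4-fold higher (adjusted p = 1.48e-06) with LPS/IFNg. Hpgd was at least 62.0-fold lower (adjusted p = 2.36e-07) and Ltc4s at least 3.50-fold lower (adjusted p = 0.000187). Alox5ap fell by 1.85 log2 units (adjusted p = 0.00365) and Tbxas1 fell by 1.84 (adjusted p = 0.00606). Without background correction the differences were 1.57 for Ptgs2, 4.0 for Ptges, -4.52 for Hpgd and -1.05 for Ltc4s. Neither Hpgds (-0.44, adjusted p = 0.241) nor Alox5, undetected in both groups, was called.

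Against TGFb, LPS/IFNg likewise had 2 members higher and 4 lower of 8, where 42.0% of all genes were called, 17.8% higher and 24.2% lower. Here too the 2 include Ptgs2, which passed the detection filter only through LPS/IFNg. The arrays did not overlap in 7 of 8 members, as in 64.8% of all genes. Ptgs2 was at least 7.95-fold higher (limma adjusted p = 1.07e-06 with no detection filter). Ptges, detected on 1 of 3 TGFb arrays, was 6.11 log2 units higher (adjusted p = 1.25e-06). Without background correction these differences were 1.68 and 3.96, and that of Ltc4s was -1.03. Hpgd was at least 100-fold lower (adjusted p = 1.17e-07), Ltc4s at least 3.47-fold lower (adjusted p = 0.000151), Alox5ap fell by 3.22 log2 units (adjusted p = 8.54e-05) and Tbxas1 fell by 2.19 (adjusted p = 0.00186). Within slide 1, where every stimulus had an array, Tbxas1 missed the threshold against IL-4 (adjusted p = 0.129) and against TGFb (adjusted p = 0.0617), and without LPS/IFNg replicate 1 it missed it against IL-4 (adjusted p = 0.0685). Alox5ap against IL-4 missed it within slide 1 (-2.05, adjusted p = 0.0988) and within slide 2 (-1.58, adjusted p = 0.112).

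IL-4 and TGFb, the 2 stimuli of equal length, differed in 1 of 8 members, where 8.58% of all genes were called, 3.92% higher and 4.66% lower with IL-4. The arrays did not overlap in 3 of 8 members, Ptgs2, Alox5 and Alox5ap, as in 27.3% of all genes. Ptgs2 was undetected in both groups, so its lack of overlap lies at background. Alox5ap was lower with IL-4, at 10.08, 9.64 and 9.67, against 11.88, 10.55 and 11.08 with TGFb, and every IL-4 array was below every TGFb array. The difference was -1.38 ± 0.35 log2 units (SE, limma adjusted p = 0.0362). This call was lost under 12 of 24 alternatives, among them slide as a fixed block (adjusted p = 0.0528), median scaling (adjusted p = 0.0892) and leaving out TGFb replicate 1 (-1.02, adjusted p = 0.107). Alox5 was undetected on all IL-4 arrays and detected on all TGFb arrays. Its mean was at least 2.45-fold lower with IL-4 before any account of the spread, and the difference was not called (limma adjusted p = 0.28).

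The rest of the pathway was read from 62 further genes, of which 27 were tested. With LPS/IFNg against untreated cells 2 were higher, 10 lower and 15 not called, with a median log2 fold change of -0.17, beside the 17.5% higher and 23.5% lower of all genes. With IL-4 and with TGFb 0 of 27 were called by limma, where 1.28% and 0.983% of all genes were. In each, 7 of 27 had an unadjusted p under 0.05, as did 1264 of all 8952 genes with IL-4 and 987 with TGFb. With the replicate block, IL-4 against untreated cells gave 2 calls on all arrays, Fpr2 (adjusted p = 0.0415) and Cysltr1 (adjusted p = 0.0269), and 1 on these 2 groups alone, Fpr2 (adjusted p = 0.0333). TGFb gave 3 with that block on all arrays, Fpr2 (limma adjusted p = 0.0149), Cysltr1 (adjusted p = 0.0204) and Prxl2b (adjusted p = 0.0482). Of all 8952 genes, the block called 184 with IL-4 on all arrays, 77 with IL-4 on the 2 groups alone, and 148 with TGFb.

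Of 14 genes listed for the release of arachidonic acid, 6 were tested, and the phospholipase gene Pla2g4a was not among them. Of these 6, 2 were lower with LPS/IFNg and 4 were not called, beside the 23.5% lower of all genes. Daglb, a diacylglycerol lipase, was at 8.17 ± 0.44 with LPS/IFNg (SD, n = 2) and 11.96 ± 0.21 in untreated cells (SD, n = 3), and fell by 3.79 log2 units (limma adjusted p = 1.44e-05). Pla2g15, a lysosomal phospholipase A2, fell by 3.22 (adjusted p = 4.21e-07). Among 4 other prostanoid synthases, Ptges2, a second prostaglandin E synthase, was 1.07 ± 0.31 higher (adjusted p = 0.0169), a call that was lost with median scaling (0.70, adjusted p = 0.139), on slide 2 alone (adjusted p = 0.0547), without LPS/IFNg replicate 3 (adjusted p = 0.112) and without untreated replicate 1 (adjusted p = 0.0565). Cbr1, a carbonyl reductase that can turn prostaglandin E2 into F2alpha, fell by 1.95 (adjusted p = 5.09e-05). Without background correction the difference was 0.40 for Ptges2 and -1.18 for Cbr1, and both stayed called.

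Of 3 tested genes listed under prostanoid breakdown and transport, Cbr3 is another carbonyl reductase, whose action on prostaglandins was not measured here. It was at 5.54 ± 0.49 with LPS/IFNg, where 1 of 2 arrays detected it, and 9.47 ± 0.04 in untreated cells. Cbr3 fell by 3.93 (limma adjusted p = 3.67e-07), or by 2.43 without background correction. The other 2, Ptgr2 at 0.08 and the exporter gene Abcc4 at -0.12, were not called. The prostaglandin E2 receptor gene Ptger2 (EP2) was undetected with LPS/IFNg and at least 1.13-fold lower (adjusted p = 0.00703), a call lost without LPS/IFNg replicate 3 (adjusted p = 0.0822), and its difference without background correction was -0.24.

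On the leukotriene side, 4 of 6 tested genes of synthesis and processing were lower with LPS/IFNg and 2 were not called, beside the 23.5% lower of all genes. Mgst3, a microsomal glutathione transferase, fell by 2.92 log2 units (limma adjusted p = 8.33e-05), Dpep2, a dipeptidase acting on cysteinyl leukotrienes, fell by 2.30 (adjusted p = 0.00108), and Cotl1, a protein that binds 5-lipoxygenase and actin, fell by 1.00 (adjusted p = 0.0077). Mgst2, a transferase able to form leukotriene C4, was undetected with LPS/IFNg and at least 1.06-fold lower (adjusted p = 0.0248). The Cotl1 call was lost on slide 2 alone (adjusted p = 0.0728) and without LPS/IFNg replicate 3 (adjusted p = 0.0607), and that of Mgst2 under 4 of 23 alternatives, with adjusted p-values up to 0.189. Without background correction the difference was -1.49 for Dpep2 and -0.19 for Mgst2 (adjusted p = 0.108).

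Cysltr1, the receptor for cysteinyl leukotrienes, was at 6.16 ± 0.69 with LPS/IFNg (SD, n = 2) and 9.35 ± 0.59 in untreated cells (SD, n = 3), and fell by 3.19 (limma adjusted p = 0.00044), or by 2.10 without background correction. With IL-4 it was at 8.32 ± 0.73 (adjusted p = 0.31) and with TGFb at 8.24 ± 0.50 (adjusted p = 0.344), below the untreated mean but not called in the main fit. With the replicate block Cysltr1 was called for both (limma adjusted p = 0.0269 and 0.0204 in that order). None of 3 leukotriene breakdown genes was called against untreated cells with any stimulus. Cyp4f13, with the highest mean signal, was at -0.17 with LPS/IFNg (adjusted p = 0.398). Cyp4f18 was 2.42 higher with TGFb than in untreated cells (limma adjusted p = 0.0559, and 0.0163 in the authors' value table). Against TGFb, Cyp4f18 was called lower with LPS/IFNg (-2.56, adjusted p = 0.00377) and with IL-4 (-2.96, adjusted p = 0.00572). Fpr2, a receptor for formyl peptides and lipoxin A4, was at 14.09 ± 0.06 with LPS/IFNg and 10.54 ± 0.99 in untreated cells, 3.55 ± 0.98 higher (adjusted p = 0.0141). With IL-4 it was at 7.80 ± 1.69 and with TGFb at 6.56 ± 1.45 (SD, n = 3 each). Neither was called against untreated cells in the main fit (adjusted p = 0.179 and adjusted p = 0.0646 in that order). With the replicate block Fpr2 was called lower for both (limma adjusted p = 0.0415 and 0.0149 in that order). The LPS/IFNg call was lost without LPS/IFNg replicate 1 (adjusted p = 0.0718) or replicate 3 (adjusted p = 0.0675).

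**Figure D5:**
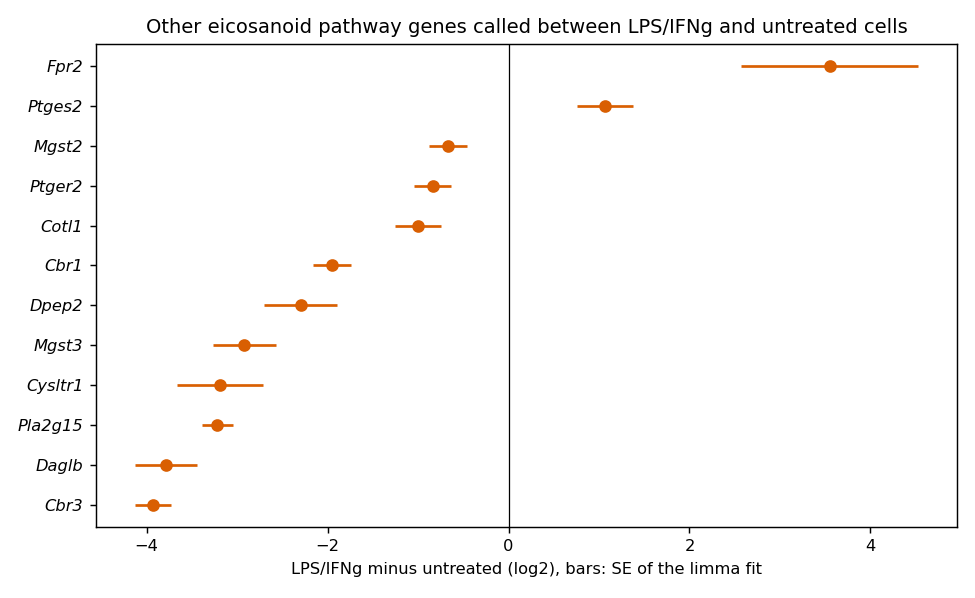
Difference between LPS/IFNg and untreated cells in log2 units for the 12 called genes among 27 other pathway genes (rows), with bars for the SE of the limma fit. Fpr2 at 3.55 and Ptges2 at 1.07 lie right of 0, and the other 10 genes lie between -3.93 and -0.67.

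The genes most like 3 members were found by the Euclidean distance over the 3 log2 fold changes against untreated cells, among 8952 genes on 11 arrays. Nearest to Ptgs2 were Lad1 (distance 0.20), Acot7 (0.21) and Tpbg (0.28), each with log2 fold changes of 3.44 to 3.71 for LPS/IFNg. Lad1 and Tpbg, like Ptgs2, were detected only on the LPS/IFNg arrays and passed the filter only through them. Their changes with IL-4 and TGFb therefore lie at background, and only Acot7 was detected in every group. Nearest to Ptges were Gpr18 (0.22), Il1a (0.52) and Gbp3 (0.75). Hpgd had no equally close neighbour: the nearest were Slco2b1 (1.27), Sort1 (1.80) and Man2a2 (2.02), with LPS/IFNg values of -7.50, -6.06 and -5.84. Slco2b1 and Man2a2, like Hpgd, were undetected with LPS/IFNg, so background limits the size of their falls.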

How the data were processed

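Biotin-labelled cRNA was hybridised to 11 arrays on 2 slides. The deposited scanner table holds, per the file headers, a bead signal intensity on the linear scale, not normalized between arrays, and a detection p-value per probe. A further deposited table gives the authors' own log2 values. Compared with the scanner table, these are log2 quantile-normalized signals moved by opposite probe-wise amounts on the 2 slides, to within 0.0079. Partek is named in the submitters' processing notes, with no further step named there.

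The neqc function (limma 3.58.1, R 4.3.3) corrected the background by normexp, offset 16, then quantile-normalized and took log2. Probes detected (detection p below 0.01) on at least 2 arrays were kept. Of 45281 probes, 34885 named 1 gene, 18 more than 1 and 10378 no gene, and 34807 names were updated by Entrez identifier. The probe with the highest mean stood for each gene, which left 8952 genes. Limma (lmFit, eBayes) took all 11 arrays in 1 fit of the 4 group means, with 7 residual and 3.52 prior degrees of freedom, and each of 6 contrasts was adjusted by the Benjamini-Hochberg method over all genes. The fit was tested on simulated data. No pair of arrays held identical values. Whether replicates came from separate cultures or animals is not in the labels, so a p-value covers only the array-to-array spread, which may be technical. The number of arrays limits the precision.

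The members and lists were chosen with earlier results of these data known. All members are named, as are the other pathway genes called against untreated cells, the brightest gene of a list with none called, and the 3 genes nearest to Ptgs2, Ptges and Hpgd. Ptgr2, Abcc4, Cyp4f18, Prxl2b and the marker genes fall outside this rule and were chosen after their values were seen. Pla2g4a, which was not tested, is also named outside it. Pairing was checked by correlating same-numbered arrays' deviations from their group means. IL-4 and untreated arrays gave 0.40, 0.44 and 0.26, while TGFb and untreated arrays gave 0.49, 0.11 and -0.10. Deviations in a group cancel out, so same-numbered and other-numbered correlations offset each other, and these values do not settle a pairing. The main fit has no pairing, and the replicate block was an alternative. Alternatives tried were median scaling, no background correction, the authors' table, other detection limits, every probe, slide as a fixed or random block, 1 slide alone, a replicate block, robust eBayes with an intensity trend, only the 2 groups compared, and leaving out each array in turn. Another promoter motif of the search plan is not reported here.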

Additional observations from a re-analysis of the deposited data

How the results depend on the processing

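The changes of Ptgs2, Ptges, Hpgd, Alox5ap and Ltc4s with LPS/IFNg against untreated cells kept their direction and their call under all 23 alternatives. The count of members called was 5 to 8 over the alternatives for LPS/IFNg against untreated cells, where 7 were called. For IL-4 against untreated cells 0 members were called, with 1 in the authors' table, 2 with a replicate block on all arrays, 1 with the replicate block on only the IL-4 and the untreated arrays (added after seeing the data), and 0 to 2 when an array was left out, 2 without untreated replicate 2. For IL-4 the authors' table called 405 of all genes, the replicate block 184, that block on the 2 groups 77 and the fit without untreated replicate 2 129. For TGFb against untreated cells 1 member, Ltc4s, was called with the replicate block (limma adjusted p = 0.042). Of all 8952 genes that block called 148 with TGFb, against 88 in the main fit. For IL-4 against TGFb, 0 were called with median scaling, no filter, slide as a fixed block and the 2 groups alone, and 0 to 1 when an array was left out. Of all genes these 4 fits called 645, 663 (of 19057), 682 and 478 in that order, against 768 in the main fit. The call of Alox5ap was also lost on each slide alone. Alox5 with LPS/IFNg against untreated cells was called with the replicate block (-3.09, adjusted p = 0.0111).

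Among the 27 other pathway genes, IL-4 against untreated cells gave 2 calls in the authors' table, 2 with the replicate block, 1 with it on the 2 groups alone, and 0 to 1 when an array was left out. TGFb against untreated cells gave 1 without background correction, with median scaling, with slide as a random block and on the 2 groups alone, 4 in the authors' table, 3 with the replicate block, and 0 to 3 when an array was left out, 3 without IL-4 replicate 1. LPS/IFNg against IL-4 gave 6 of 13 calls on slide 1 alone and 7 to 13 when an array was left out, 7 without LPS/IFNg replicate 3. LPS/IFNg against TGFb gave 8 of 14 on slide 2 alone and 9 on slide 1 alone. IL-4 against TGFb, with 3 in the main fit, gave fewer on either slide alone, as did all genes. It gave 1 on the 2 groups alone, and 1 to 4 when an array was left out, 1 without TGFb replicate 2 or 3. Of all genes, the 2 groups alone gave 478 calls and the fits without TGFb replicate 2 or 3 gave 391 and 464, against 768 in the main fit.

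The excess over the Hpgd change with LPS/IFNg was smaller without background correction, at 7.05 for Ptgs2, 9.11 for Ptges, 4.53 for Hpgds and 4.05 for Tbxas1, and in the authors' table, at 7.04, 8.86, 4.51 and 4.14 in that order. Leaving out an array gave 12.66 to 13.60 for Ptges with LPS/IFNg, -1.08 to -0.14 for Ptges with TGFb and 0.50 to 1.22 for Tbxas1 with TGFb. It gave -0.52 to 0.42 for Ptges and -0.17 to 0.64 for Hpgds with IL-4, and -0.11 to 0.35 for Ptgs2 and -0.57 to -0.09 for Hpgds with TGFb. Values near 0 changed sign. For TGFb against untreated cells, Ptgs2 was at 0.00 without background correction, 0.10 in the authors' table, 0.11 with slide as a fixed block, 0.01 on slide 2 alone, 0.01 without TGFb replicate 1 and 0.07 without untreated replicate 1, with a range of -0.06 to 0.07 when an array was left out. Hpgd was at 0.12 on slide 2 alone and 0.05 without untreated replicate 2, Alox5 at 0.13 without untreated replicate 1, and Alox5ap at 0.17 without TGFb replicate 2 and 0.03 without untreated replicate 1 or 3. With an array left out these ran from -0.38 to 0.05 for Hpgd, -1.81 to 0.13 for Alox5 and -0.49 to 0.17 for Alox5ap. Tbxas1 with IL-4 was at 0.00 without IL-4 replicate 2, and at up to 0.79 without IL-4 replicate 1. The cause was not tested in any of these. Signals on arrays that did not detect a probe lie at background, which limits how large a difference can be measured there. Where 1 LPS/IFNg array was left, it was assumed to vary like the other groups.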
